A study of Homo sapiens with 9 samples.

Results

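The lysyl oxidase family is a group of 5 secreted, copper-dependent amine oxidases, LOX, LOXL1, LOXL2, LOXL3 and LOXL4. Its members were chosen by gene symbol, and all 5 were found among the 27111 genes of the deposited tables and among the 17108 genes that were tested. The values came from multicellular tumor spheroids (MTSs) of PC-3, an established human prostate cancer cell line. The cells had been stably infected with pSIN lentiviral particles and selected with puromycin. The particles carried no insert (Empty), the long NF-YA isoform (NF-YAl) or the short one (NF-YAs), so that all 3 groups had undergone infection and selection. NF-YA is the regulatory subunit of NF-Y, the transcription factor that binds the CCAAT box, and both isoforms were murine sequences. Each group had 3 libraries, with the letters A, B and C for Empty and NF-YAs and A, B and D for NF-YAl. Each library was made from total RNA of pooled MTSs grown with Matrigel in ultra-low attachment plates, in 3 independent experiments. The paper describes a stable line for each condition, and the number of infections behind each line is not given. A feature of the line and an effect of the isoform can therefore not be told apart.

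Lysyl oxidases oxidize lysine residues of collagens and elastin to reactive aldehydes, which then condense into the covalent cross-links that stiffen the extracellular matrix. LOX is made as a proenzyme and is released by proteases of the BMP1 family, and LOXL1 is known for its part in elastic fibre maintenance. LOXL2, LOXL3 and LOXL4 form a subgroup with scavenger receptor cysteine-rich domains, and LOXL2 is known to cross-link collagen IV of basement membranes. In tumors, LOX and LOXL2 are known as targets of hypoxia-inducible factors and for their roles in matrix stiffening and spread.

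Because the overexpressed protein belongs to the CCAAT-binding factor, the 250 bases before the annotated start were read for the members that had a RefSeq window on GRCh38.p14, which were 4 of the 5. The windows of the 3 genes that differed most between groups are shown here 5′ to 3′ on the strand of the gene, with any CCAAT or its reverse complement ATTGG in capitals.
LOX, chr5:122078260-122078509, minus strand: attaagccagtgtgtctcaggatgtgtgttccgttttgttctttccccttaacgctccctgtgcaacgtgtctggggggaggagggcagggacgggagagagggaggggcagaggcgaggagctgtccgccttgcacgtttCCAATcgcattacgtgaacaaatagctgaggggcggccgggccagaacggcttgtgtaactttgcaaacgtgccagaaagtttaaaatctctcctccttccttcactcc
LOXL1, chr15:73926212-73926461, plus strand: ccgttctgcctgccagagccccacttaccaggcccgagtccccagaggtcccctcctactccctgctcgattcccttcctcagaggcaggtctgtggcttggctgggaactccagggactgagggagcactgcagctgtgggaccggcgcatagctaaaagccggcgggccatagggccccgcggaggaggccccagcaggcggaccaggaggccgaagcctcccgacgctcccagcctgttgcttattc
LOXL4, chr10:98268195-98268444, minus strand: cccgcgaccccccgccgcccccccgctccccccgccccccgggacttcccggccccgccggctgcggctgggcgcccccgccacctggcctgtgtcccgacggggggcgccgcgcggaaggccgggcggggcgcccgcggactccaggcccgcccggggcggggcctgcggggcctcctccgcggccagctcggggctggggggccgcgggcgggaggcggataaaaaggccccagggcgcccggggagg
The LOX window held 1 CCAAT on the gene's own strand, beginning 109 bases before the start. No CCAAT was found on either strand of the LOXL1 and LOXL4 windows, of the windows of 2 further LOX starts or of the 2 LOXL3 windows. For reference, 11194 of 34943 windows of this length, or 32.04%, held the motif on either strand. A match of these letters is not evidence of binding, and binding was not measured here.

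The libraries held between 18076979 and 27163976 expected counts, which are the RSEM estimates of reads per gene, and counts were found for 20116 to 20756 genes per library. Levels are given as TMM-scaled CPM, the counts set relative to the size of each library, when 1 gene is compared between libraries. TPM, which are also corrected for transcript length, are used when members are compared with each other. A gene was called different when the Benjamini-Hochberg adjusted p of the edgeR quasi-likelihood test was under 0.01 and the |log2FC| was above 1. NFYA itself averaged 91.8 ± 4.24 CPM for Empty, 341 ± 49.3 for NF-YAl and 261 ± 5.71 for NF-YAs (SD, n = 3), and every library of both overexpressing lines was above every Empty library. Counting was on human transcripts, so reads of the murine and endogenous genes cannot be told apart. The 6 markers of the cell line, KRT8, KRT18, KRT19, EPCAM, CDH1 and VIM, were all tested. KRT8 averaged 286 ± 23.9 CPM for Empty, 114 ± 5.38 for NF-YAl and 167 ± 12.1 for NF-YAs and was called lower in NF-YAl, and CDH1 was called lower in NF-YAs. EPCAM averaged 0.982 ± 0.0576, 4.42 ± 0.987 and 2.71 ± 0.479 CPM in the same order and was called higher in both lines, while KRT18, KRT19 and VIM were not called in either. On log2(TPM + 1), of these calls only that of EPCAM in NF-YAl was made. By the edgeR adjusted p alone, without the fold limit, KRT18 and KRT19 were also lower in both lines. KRT8 was then lower and VIM higher in NF-YAs too. KLK3, a prostate gene that PC-3 cells are known not to express, had no counts in any library. Of 10 markers of leukocytes, endothelium and smooth muscle, 5 passed the filter on low counts. The highest of these was PECAM1, at 6.27 ± 0.943, 5.57 ± 0.648 and 1.88 ± 0.268 CPM, while the endothelial genes CDH5 and TEK stayed at 11 or fewer counts in every library. NF-YAl replicate D lay apart from its group on principal component 3, at -47.5 against 30.9 and 2.06 for replicates A and B.

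In Empty MTSs, LOXL2 and LOXL1 were the abundant members of the family. LOXL2 was listed at 61.5, 58.97 and 50.23 TPM in replicates A, B and C, and LOXL1 at 57, 54.67 and 51.02 TPM, so that the ranges of the 2 genes overlapped. LOXL4 followed at 2.41, 3.17 and 2.85 TPM and LOX at 3.01, 2.31 and 2.14 TPM, again with overlapping ranges. LOXL3 came last at 0.23, 0.12 and 0.17 TPM. The order differed between the groups. In NF-YAl MTSs, LOXL1 (53.77 to 70.58 TPM) and LOXL2 (32.95 to 61.76 TPM) overlapped at the top, LOX came next at 9.06 to 15.21 TPM, and LOXL4 and LOXL3 followed without overlap. In NF-YAs MTSs, LOXL2 stood alone at 71.79 to 82.65 TPM, ahead of LOXL1 at 22.24 to 26.28, LOXL4 at 6.44 to 9.5, LOX at 3.7 to 4.03 and LOXL3 at 0.2 to 0.62, and no neighbours in that order overlapped.

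The summed level of the family in TPM differed little in its mean. It was 116.6 ± 9.16 TPM for the Empty line, 124.1 ± 25.3 TPM for NF-YAl and 114.0 ± 8.07 TPM for NF-YAs (SD, n = 3), with overlapping ranges. The make-up of this sum differed more. LOXL1 took 46.6 ± 1.20% of it for Empty, 52.6 ± 6.38% for NF-YAl and 20.9 ± 1.53% for NF-YAs. LOXL2 took 48.7 ± 1.33%, 34.8 ± 6.32% and 68.6 ± 0.388% in the same order, and its ranges did not overlap between any of the groups. LOX took 2.12 ± 0.262% for Empty, 10.1 ± 1.36% for NF-YAl and 3.42 ± 0.0948% for NF-YAs, again without overlap. LOXL4 took 2.43 ± 0.420% for Empty, 2.17 ± 1.10% for NF-YAl and 6.74 ± 1.25% for NF-YAs, where its 3 libraries were above all others. LOXL3 stayed under 1% of the sum in every library. These sums and shares are descriptions and were not tested. TPM were not TMM-scaled between libraries, so that a comparison of the sums between groups depends on this scale. On log2(TPM + 1) the median log2FC of all tested genes was 0.224 in NF-YAl over Empty, against 0.0109 in the count test.

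LOX was higher in NF-YAl than in both other lines. It was measured at 10.69, 10.93 and 10.86 CPM in Empty replicates A, B and C. It was measured at 54.63, 42.2 and 37.09 CPM in NF-YAl replicates A, B and D, and at 14.49, 15.73 and 16.13 CPM in NF-YAs. The 3 groups did not overlap, and the lowest NF-YAl library was above the highest NF-YAs library. LOX rose 4.12-fold in NF-YAl over Empty (log2FC 2.04 ± 0.141 SE, edgeR adjusted p = 1.6133e-06), and it was higher in NF-YAl than in NF-YAs by a log2FC of 1.53 ± 0.139 (edgeR adjusted p = 3.39187e-05). In NF-YAs over Empty its log2FC was 0.51 ± 0.142, with an edgeR adjusted p of 0.0139, and it was not called. These are amounts of LOX RNA in whole MTSs, in which a change in the number of expressing cells and one in the RNA per cell cannot be told apart.

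Reads were assigned to 2 of the 3 listed LOX transcripts. NM_002317.6, of 5318 nt, took 72.9 ± 20.1% of LOX TPM for Empty, 73.9 ± 10.2% for NF-YAl and 81.0 ± 8.19% for NF-YAs (SD, n = 3). The remainder went to NM_001178102.2, of 4393 nt, and NM_001317073.1 was listed at 0 in every library. The Empty libraries alone ranged from 56.12 to 95.16% for NM_002317.6. Neither overexpressing line differed from Empty beyond this spread (exact permutation over libraries, two-sided, p = 1.0 for NF-YAl and 0.5 for NF-YAs), though 3 libraries against 3 allow no p below 0.1. No difference in LOX transcript use was detectable at this depth.

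LOXL1 was lower in NF-YAs alone of the 2 overexpressing lines. Its libraries stood at 93.57, 117.1 and 111.5 CPM in Empty, 123.1, 111.8 and 78.7 CPM for NF-YAl, and 41.8, 39.61 and 43.31 CPM for NF-YAs. Every NF-YAs library was below every other library, while Empty and NF-YAl overlapped. LOXL1 fell in NF-YAs over Empty (log2FC -1.37 ± 0.152, edgeR adjusted p = 3.46455e-05) and was higher in NF-YAl than in NF-YAs (log2FC 1.33 ± 0.152, edgeR adjusted p = 0.000121). For NF-YAl over Empty the log2FC was -0.04 ± 0.147 (edgeR adjusted p = 0.871). This last sign depended on scale and on NF-YAl replicate D, which was the lowest of its group in CPM at 78.7 but the highest in TPM at 70.58. Without that library the log2FC was 0.13, without Empty replicate B it was 0.03, and on log2(TPM + 1) it was 0.24.

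LOXL2 was lower in NF-YAl and, of the groups, highest in NF-YAs. It was measured at 167.7, 209.8 and 182.2 CPM in Empty, at 97.01, 126.4 and 114.2 CPM for NF-YAl, and at 218.8, 237.8 and 225.6 CPM for NF-YAs. The groups did not overlap in CPM. NF-YAl over Empty gave a log2FC of -0.73 ± 0.116 (edgeR adjusted p = 0.000531), which passed the p threshold but not the fold limit. On log2(TPM + 1) it was -0.42, with a limma adjusted p of 0.343. The log2FC of NF-YAs over Empty was 0.29 ± 0.116 (edgeR adjusted p = 0.0738), which did not pass either one. Between the isoforms, LOXL2 was called lower in NF-YAl than in NF-YAs (log2FC -1.01 ± 0.117, edgeR adjusted p = 0.000129). That call lay close to the fold limit, and it was lost without NF-YAl replicate A (log2FC -0.92) or without NF-YAs replicate B (-0.98). In TPM, NF-YAl replicate D reached 61.76 for LOXL2, above the highest Empty library at 61.5.

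LOXL4 was higher in NF-YAs than in NF-YAl, while its difference from Empty was near the threshold. Its levels were 6.291, 10.81 and 9.918 CPM in Empty, 3.023, 10.1 and 7.106 CPM for NF-YAl, and 18.1, 26.97 and 19.4 CPM for NF-YAs. All NF-YAs libraries were above all others, and Empty and NF-YAl overlapped. The log2FC was 1.25 ± 0.328 in NF-YAs over Empty, where the edgeR adjusted p of 0.0106 just missed the threshold. Leaving out NF-YAl replicate A, B or D, which takes their spread from the fit, gave adjusted p-values of 0.000398, 0.00635 and 0.00654. LOXL4 stayed uncalled in this comparison in 11 of 20 alternatives, among them DESeq2 and leaving out any Empty or NF-YAs library. The direct difference of NF-YAl from NF-YAs was called (log2FC -1.66 ± 0.336, edgeR adjusted p = 0.00452), and its adjusted p was 0.0103, 0.0249 and 0.0140 without NF-YAs replicate A, B or C. In NF-YAl over Empty the log2FC was -0.40 ± 0.338 (edgeR adjusted p = 0.399), and it was -0.07 without NF-YAl replicate A, -0.81 without NF-YAl replicate B and -0.25 without Empty replicate B.

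LOXL3 was close to the limit of these libraries, with 8.27 to 27.19 expected counts each. It was measured at 0.5033, 0.3179 and 0.4723 CPM in Empty, at 0.9017, 1.104 and 0.6983 CPM for NF-YAl, and at 1.347, 0.6469 and 0.6451 CPM for NF-YAs. Every library of both overexpressing lines was above the Empty libraries. The log2FC was 1.06 ± 0.393 in NF-YAl over Empty (edgeR adjusted p = 0.0579) and 1.01 ± 0.400 in NF-YAs over Empty (edgeR adjusted p = 0.0686), and neither was called. Between the isoforms it was 0.05 ± 0.369 (edgeR adjusted p = 0.938), a sign that turned to -0.13 without NF-YAs replicate C. The split of so few reads over 3 LOXL3 transcripts gave exact permutation p-values of 0.2 or more.

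**Figure D1:**
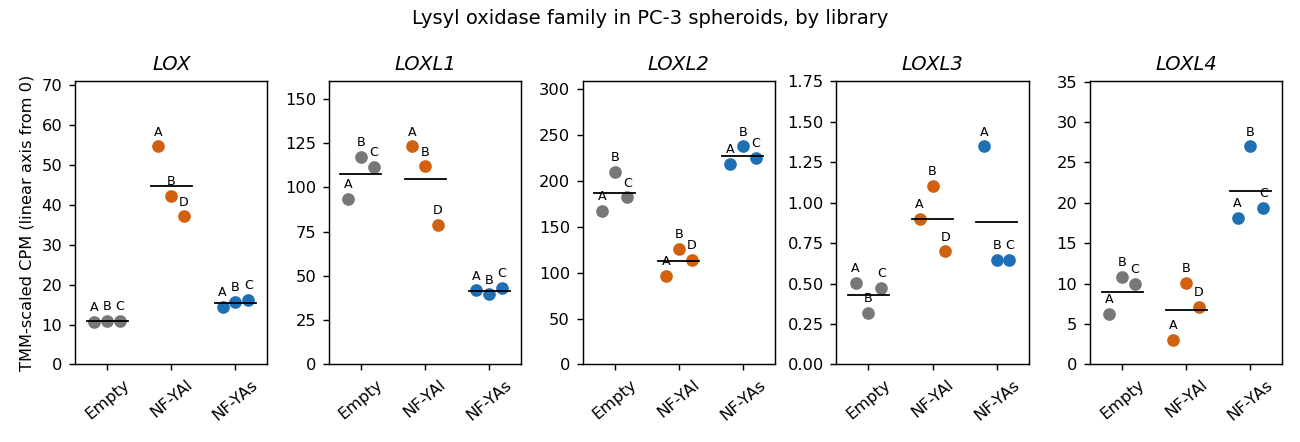
Points give TMM-scaled CPM of each member in the 9 libraries, labelled by replicate letter, with a line at the group mean and a linear axis from 0 in each panel. LOX is highest in the 3 NF-YAl libraries, LOXL1 lowest in the 3 NF-YAs libraries, and LOXL4 highest in the 3 NF-YAs libraries.

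Counted over the family, 1 of 5 members was called in NF-YAl over Empty, where 8.27% of all tested genes were called. In NF-YAs over Empty it was again 1 of 5, against 9.34% of all tested genes. In the direct comparison of the isoforms 4 of 5 were called, 2 higher and 2 lower in NF-YAl, against 4.61% of all tested genes. With the adjusted p alone and no fold limit, the members were 2, 1 and 4 of 5, and the shares of all tested genes were 19.6%, 22.6% and 11.0%. The median log2FC of all tested genes was 0.01, -0.003 and 0.02 in the 3 comparisons. The 2 comparisons with Empty share the Empty libraries, and the remaining one is the difference between them.

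**Figure D2:**
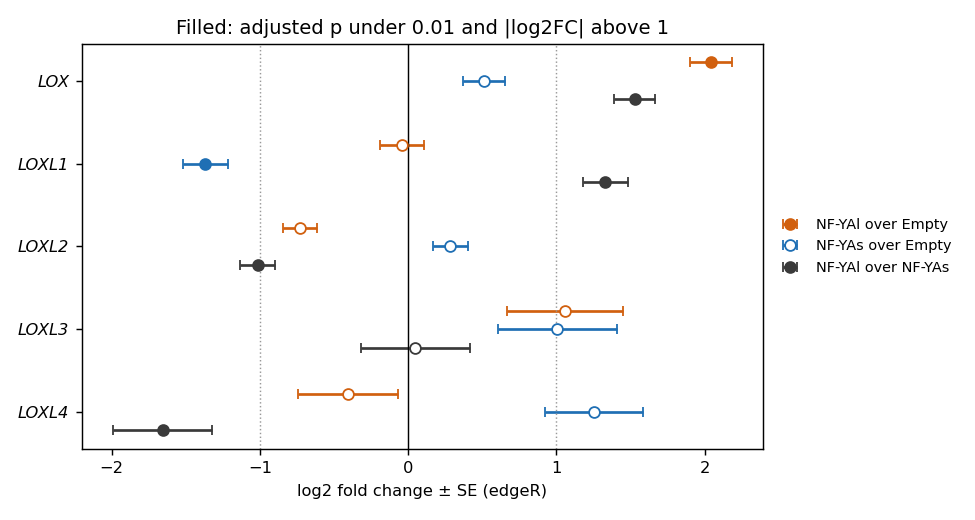
Points give the edgeR log2 fold change of each member in the 3 comparisons, with bars of 1 SE, dotted lines at the fold limits and filled symbols for called differences. LOX in NF-YAl over Empty lies farthest to the right at 2.04, and LOXL4 in NF-YAl over NF-YAs farthest to the left at -1.66.

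Across the 9 libraries, LOX and LOXL2 ran against each other (Pearson r of log2 CPM -0.842), as did LOXL1 and LOXL4 (-0.794), whereas LOXL2 and LOXL4 ran together (0.858). LOX and LOXL1 had an r of 0.261. These coefficients describe 9 libraries in 3 groups, which share the group means given above. The genes whose pattern was most like LOX were CAP2 (0.992), FOXP1 (0.985) and CDK5R1 (0.984), each highest in NF-YAl. For LOXL1 they were DCAF8 (0.998), PPFIA4 (0.993) and EPB41 (0.989), each lowest in NF-YAs. VOPP1 (0.994), SEPT6 (0.989) and TAF6 (0.987) were nearest to LOXL2, and EMG1 (0.980), FAM107A (0.975) and CTNNBL1 (0.972) to LOXL4. The nearest to LOXL3 were MED14 (0.928), DCLRE1A (0.912) and GRIP1 (0.901). At least 12124 genes were searched for each member.

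The 5 genes lie on separate chromosomes. In the GENCODE annotation of GRCh37, the build of the deposited data, LOX occupies chr5:121398890-121414108 on the minus strand and LOXL1 chr15:74218330-74244478 on the plus strand. LOXL2 spans chr8:23154410-23282841, LOXL3 chr2:74759385-74782817 and LOXL4 chr10:100007447-100027951, all on the minus strand. Some members share genomic sequence with other genes, and whether the counting used the strand of the reads is not given in the sources used here. LOXL1-AS1, a long non-coding RNA gene on the strand opposite LOXL1, averaged 99.3 ± 4.88 CPM for Empty, 118 ± 13.0 for NF-YAl and 62.4 ± 7.31 for NF-YAs. It was lower in NF-YAs than in Empty by a log2FC of -0.67 ± 0.113 (edgeR adjusted p = 0.000691) and higher in NF-YAl than in NF-YAs by 0.92 ± 0.113 (edgeR adjusted p = 0.000206), both under the fold limit. Reads of LOXL1 and LOXL1-AS1 where they overlap cannot be told apart without the strand. SRFBP1, opposite LOX, had a log2FC of 0.02 ± 0.117 in NF-YAl over Empty (edgeR adjusted p = 0.916). DOK1, which overlaps LOXL3 on the other strand, averaged 1.88 ± 0.0685 CPM for Empty, 3.68 ± 1.05 for NF-YAl and 4.27 ± 0.675 for NF-YAs, and was called higher in NF-YAs over Empty (log2FC 1.18 ± 0.242, edgeR adjusted p = 0.00257). HTRA2, also opposite LOXL3, was higher in NF-YAs over Empty by 0.53 ± 0.118 (edgeR adjusted p = 0.00394), under the fold limit. ENTPD4 overlaps the span of LOXL2 on the same strand, so that the strand would not tell apart any shared reads. It averaged 112 ± 2.51 CPM for Empty, 112 ± 12.3 for NF-YAl and 105 ± 1.75 for NF-YAs. Over the 100 tested genes nearest to LOX on its chromosome, the median log2FC in NF-YAl over Empty was -0.10, against 2.04 for LOX. Over those nearest to LOXL1 it was -0.09 in NF-YAs over Empty, against -1.37 for LOXL1.

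**Figure D3:**
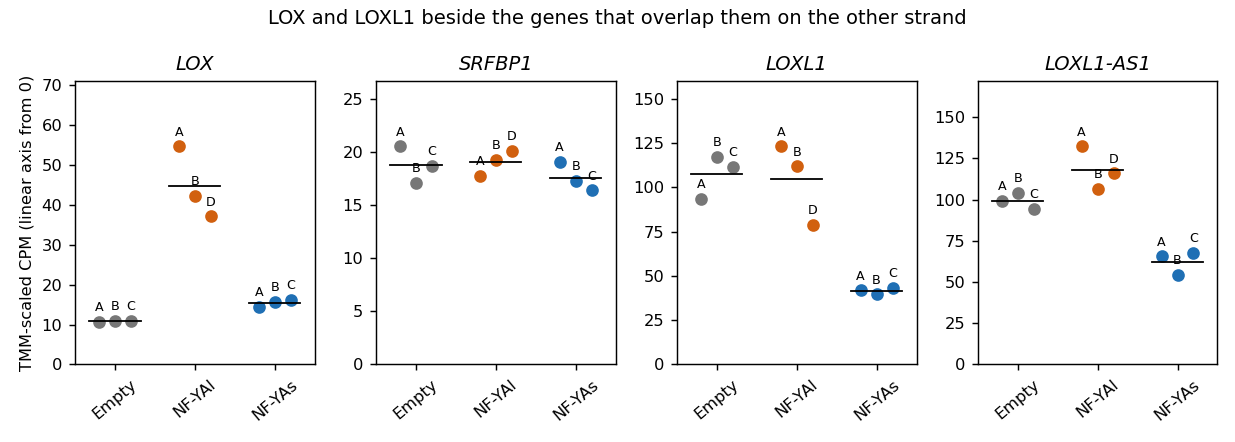
Points give TMM-scaled CPM by library for LOX and LOXL1 and for the genes that overlap them on the opposite strand, with a line at the group mean and linear axes from 0. SRFBP1 lies between 16.4 and 20.55 CPM in all libraries, and LOXL1-AS1, like LOXL1, is lowest in NF-YAs.

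The substrates of the family were described from lists. Of 10 tested fibrillar collagen genes, 1 was called higher in NF-YAl over Empty and 5 in NF-YAs over Empty, with 0 lower in either, where 8.27% and 9.34% of all tested genes were called in either direction. These shares also stand behind the counts over Empty of the lists that follow. For counts between the isoforms the share of all tested genes was 4.61%. By the adjusted p alone it was 19.6% in NF-YAl over Empty, 22.6% in NF-YAs over Empty and 11.0% between the isoforms. The count in NF-YAs was 2 with at least 10 counts in every library and 3 on log2(TPM + 1). Their median log2FC was 0.53 and 1.52, beside 0.01 and -0.003 for all tested genes. COL1A1, a chain of the major fibrillar collagen, averaged 39.7 ± 0.517 CPM for Empty, 46.0 ± 13.7 for NF-YAl and 126 ± 13.0 for NF-YAs, and rose in NF-YAs over Empty by a log2FC of 1.67 ± 0.181 (edgeR adjusted p = 2.99788e-05). It was lower in NF-YAl than in NF-YAs (log2FC -1.45 ± 0.180, edgeR adjusted p = 0.000212). COL27A1 rose by 1.45 ± 0.181 in the same comparison (edgeR adjusted p = 7.79814e-05). The other called ones, COL1A2, COL5A3 and COL24A1, averaged 2.29 CPM or less and were picked out after their values were seen. COL3A1 was the one called in NF-YAl, at 170 ± 92.8 CPM against 41.3 ± 25.5 in Empty (log2FC 2.04 ± 0.436, edgeR adjusted p = 0.00368). The NF-YAl call for COL3A1 was lost without Empty replicate A, Empty replicate C or NF-YAl replicate B, at adjusted p-values of 0.0212, 0.0207 and 0.0118, and with it the list's only call in NF-YAl.

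Of 6 collagen IV genes, 2 were called higher in NF-YAl over Empty and 3 in NF-YAs over Empty, with 0 lower. The median log2FC was 1.02 and 1.07. COL4A1 averaged 38.4 ± 3.80 CPM for Empty, 122 ± 13.4 for NF-YAl and 167 ± 17.8 for NF-YAs, a log2FC of 1.66 ± 0.121 and 2.12 ± 0.122 over Empty (edgeR adjusted p = 2.30007e-06 and 4.54524e-07). COL4A2, the partner chain of COL4A1 in basement membranes, rose by 1.22 ± 0.131 and 1.94 ± 0.133 (edgeR adjusted p = 3.32214e-05 and 1.44593e-06). COL4A5 rose in NF-YAs by 1.13 ± 0.138 (edgeR adjusted p = 6.99957e-05). Between the isoforms, 0 of the 6 were called by edgeR, and 2 passed the adjusted p alone, both lower in NF-YAl. Without NF-YAl replicate B, NF-YAs replicate A or NF-YAs replicate B, 1 was called lower.

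The elastic fibre list, with 16 tested genes, moved in both directions. In NF-YAl over Empty 2 were called higher and 1 lower, and in NF-YAs over Empty 3 were called higher and 0 lower. The median log2FC was -0.05 and -0.24. The counts of genes higher were 1 and 1 with at least 10 counts in every library. The count of genes lower in NF-YAl was 2 without Empty replicate A, Empty replicate C or NF-YAl replicate B. FBN1, the main microfibril protein, fell in NF-YAl from 413 ± 63.0 to 150 ± 29.2 CPM (log2FC -1.46 ± 0.152, edgeR adjusted p = 2.71393e-05). FBN2, picked out after its values were seen, averaged 931 ± 115 CPM for Empty, 475 ± 82.3 for NF-YAl and 603 ± 48.0 for NF-YAs. Its log2FCs over Empty were -0.97 ± 0.138 and -0.63 ± 0.137 (edgeR adjusted p = 0.000245 and 0.00369), under the fold limit. By the adjusted p alone, 2 genes of the list were higher and 4 lower in NF-YAl, and 4 higher and 1 lower in NF-YAs. LTBP2, a microfibril-associated protein, rose by 1.46 ± 0.183 in NF-YAl and by 1.08 ± 0.183 in NF-YAs (edgeR adjusted p = 9.8433e-05 and 0.000716). The NF-YAs call for LTBP2 was lost without Empty replicate A, at a log2FC of 0.95. FBLN5, an elastic fibre protein that binds LOXL1, averaged 0.0809 ± 0.0795 CPM for Empty, 0.235 ± 0.0195 for NF-YAl and 4.10 ± 0.510 for NF-YAs. Of its differences from Empty, that of NF-YAs was called. EFEMP1 was called in both lines, at 0.0131 ± 0.0227 CPM in Empty, 0.483 ± 0.192 for NF-YAl and 0.969 ± 0.250 for NF-YAs. Both were picked out after their values were seen. Between the isoforms 2 genes of the list were called, FBLN5 and LTBP1, and LTBP1 averaged 310 ± 18.3 CPM in NF-YAl against 697 ± 34.9 CPM in NF-YAs (log2FC -1.17 ± 0.121, edgeR adjusted p = 6.34206e-05).

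**Figure D4:**
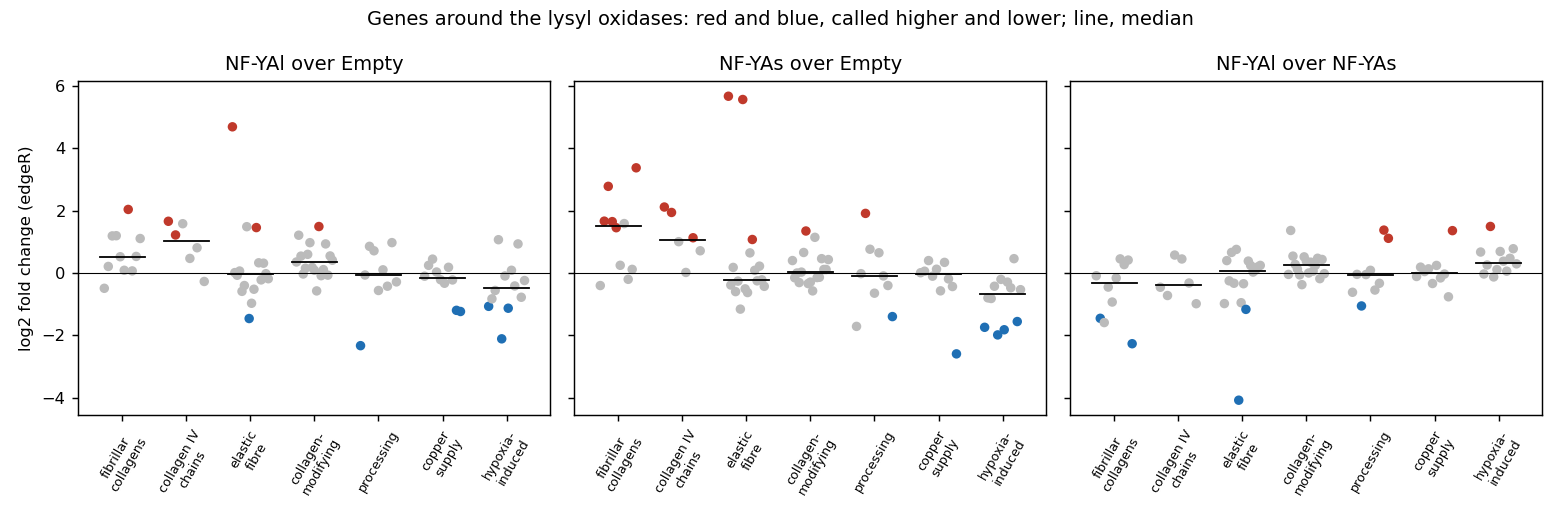
Points give the edgeR log2 fold change of each tested gene of 7 lists in the 3 comparisons, coloured red or blue where called higher or lower, with a line at the list's median. Fibrillar collagens in NF-YAs over Empty have 5 red points and a median of 1.52, and the hypoxia list has 3 and 4 blue points in the comparisons with Empty.

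Of 17 tested lysyl and prolyl hydroxylases, chaperones and related genes, which act on collagen before the lysyl oxidases, 1 was called higher in NF-YAl over Empty and 1 in NF-YAs over Empty, with 0 lower. P3H3, a prolyl 3-hydroxylase family member, was the one in NF-YAs (log2FC 1.35 ± 0.134, edgeR adjusted p = 1.60416e-05), and P4HA3, picked out after its values were seen, the one in NF-YAl. The count in NF-YAs was 2 without Empty replicate B, NF-YAl replicate A or NF-YAs replicate C. The count in NF-YAl moved to 0 without Empty replicate A, Empty replicate C or NF-YAl replicate B, and to 2 without Empty replicate B, NF-YAl replicate A or NF-YAl replicate D. PLOD2, the telopeptide lysyl hydroxylase, was just under the fold limit in NF-YAl over Empty, at 82.6 against 43.2 CPM (log2FC 0.93 ± 0.0993, edgeR adjusted p = 3.12592e-05).

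The list for the processing of procollagens and LOX also held the matrix proteins FN1 and TNXB. Of its 9 tested genes, 0 were called higher and 1 lower in NF-YAl over Empty, and 1 higher and 1 lower in NF-YAs over Empty. Without NF-YAl replicate D, 1 was higher in NF-YAl, and without NF-YAl replicate A or NF-YAl replicate D, 2 were lower in NF-YAs. Between the isoforms, 2 were higher and 1 lower in NF-YAl. BMP1, the protease that releases LOX from its propeptide, was higher in both lines by log2FCs of 0.71 ± 0.148 and 0.76 ± 0.148 (edgeR adjusted p = 0.00308 and 0.00178), under the fold limit. TLL1, a protease of the same family, was higher in NF-YAl than in NF-YAs (log2FC 1.38 ± 0.224, edgeR adjusted p = 0.00121). ADAMTS3, a procollagen N-proteinase, rose in NF-YAs over Empty by 1.91 ± 0.153 (edgeR adjusted p = 3.77691e-06), and TNXB, a matrix glycoprotein, fell by 1.40 on the log2 scale (edgeR adjusted p = 5.15713e-06). ADAMTS14, the one called lower in NF-YAl, averaged 0.268 ± 0.186 CPM there and 1.31 ± 0.433 in Empty and was picked out after its values were seen. In NF-YAs over Empty its log2FC was -1.71 ± 0.454 and it was not called (edgeR adjusted p = 0.0112). Its call in NF-YAl was lost without Empty replicate B, Empty replicate C or NF-YAl replicate B, which left 0. Between the isoforms, the call for TNXB was lost without NF-YAl replicate B (log2FC 0.97) and that for ADAMTS3 without NF-YAs replicate B (-0.93).

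Copper is the cofactor of all 5 enzymes. Of 10 genes of copper uptake and transport, 2 were called lower in NF-YAl over Empty and 1 in NF-YAs over Empty, with 0 higher. The NF-YAl count was 1 without Empty replicate C and 0 on log2(TPM + 1), where that in NF-YAs was also 0. STEAP3, a metalloreductase, fell in NF-YAl from 121 ± 12.8 to 52.8 ± 5.34 CPM (log2FC -1.20 ± 0.107, edgeR adjusted p = 9.38427e-06), and STEAP4, picked out after its values were seen, was under 5 CPM in all 3 group means. ATP7A, the transporter that loads secreted enzymes with copper, gave log2FCs of 0.25 ± 0.134 and 0.06 ± 0.135 (edgeR adjusted p = 0.188 and 0.774). Of the other copper amine oxidases, 2 of 3 were tested, and edgeR called 0 in the comparisons with Empty, by the adjusted p alone also 0.

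Of 12 genes known to be induced by hypoxia, 3 were called lower in NF-YAl over Empty and 4 in NF-YAs over Empty, with 0 higher, and the median log2FC was -0.49 and -0.67. Without NF-YAl replicate A, 1 was called higher in NF-YAl, as it was with DESeq2, with no filter and on log2(TPM + 1). CA9 had a log2FC of 1.07 ± 0.282 in NF-YAl over Empty (edgeR adjusted p = 0.0123), which just missed the p threshold. By the adjusted p alone, 1 was higher and 6 lower in NF-YAl, and 1 higher and 8 lower in NF-YAs. NDRG1 averaged 1141 ± 148 CPM for Empty, 521 ± 62.6 for NF-YAl and 323 ± 8.82 for NF-YAs, with log2FCs of -1.13 ± 0.122 and -1.82 ± 0.124 (edgeR adjusted p = 3.45521e-05 and 1.44593e-06). SLC2A1, the glucose transporter, fell in NF-YAs from 297 ± 26.1 to 101 ± 1.09 CPM (edgeR adjusted p = 1.81802e-06). ADM was lower in both lines (log2FC -1.07 ± 0.164 and -1.74 ± 0.168, edgeR adjusted p = 0.000398 and 1.31266e-05), though the NF-YAl call was lost without Empty replicate C (-0.97) or NF-YAl replicate A (-0.92). EGLN3, picked out after its values were seen, was the remaining call in each line. Between the isoforms, CA9 alone was called, higher in NF-YAl (log2FC 1.49 ± 0.290, edgeR adjusted p = 0.00348), and that call was lost without NF-YAl replicate B, NF-YAs replicate B or NF-YAs replicate C, at adjusted p-values of 0.0132, 0.0221 and 0.0205. On log2(TPM + 1), NDRG1 and ADM in NF-YAl over Empty had adjusted p-values of 0.0832 and 0.0957 and were not called.

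Of 12 tested TGF-beta pathway genes and transcription factors of epithelial-mesenchymal transition, 1 was called higher and 0 lower in NF-YAl over Empty, and 4 higher and 1 lower in NF-YAs over Empty. The median log2FC was -0.11 and 0.29. SNAI2 rose in NF-YAs from 5.73 ± 0.545 to 20.2 ± 2.60 CPM (log2FC 1.82 ± 0.222, edgeR adjusted p = 6.96307e-05) and averaged 4.79 ± 1.76 CPM in NF-YAl. SNAI1, a factor whose activity LOXL2 is known to affect, fell in NF-YAs from 5.58 ± 1.27 to 1.79 ± 0.374 CPM (log2FC -1.63 ± 0.239, edgeR adjusted p = 0.000250). TGFBR2 rose in NF-YAs by 1.16 ± 0.105 (edgeR adjusted p = 8.63749e-06). ZEB2 and TWIST2, picked out after their values were seen, were the other called genes in NF-YAs, and TWIST2, without a count in Empty, was also the one in NF-YAl. That count was 0 without Empty replicate A, Empty replicate C or NF-YAl replicate B and with at least 10 counts in every library, and 2 without NF-YAl replicate D.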

How the data were processed

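RNA-seq data of 9 libraries, 3 each of Empty, NF-YAl and NF-YAs, were used. Per the submitters' processing notes the authors aligned reads with Bowtie2 and quantified them with RSEM on hg19, and the paper's methods describe a human transcriptome of GRCh37. The authors deposited expected counts, which are RSEM estimates of reads and were not normalized. They also deposited TPM, scaled to the same total in each library, the percent of a gene's TPM taken by each transcript, and effective lengths in bases. Use of strand, read filters and the annotation version are not given in the sources used here. Groups and replicate letters came from the sample titles.

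The expected counts of genes were rounded. After filterByExpr and TMM scaling, all 9 libraries entered 1 quasi-likelihood model of edgeR 4.0.16 (R 4.3.3), with F tests for the 3 comparisons and Benjamini-Hochberg adjustment over 17108 genes. The thresholds followed the paper's methods. SEs were |log2FC| over the square root of F. Transcript shares were compared by exact permutation. P-values measure the spread between the 3 experiments of each group. Between replicate libraries the chi-square per gene was 6.08 to 86.7, above what sampling of reads alone would give.

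The members and lists were chosen with earlier results of these data known, and lists therefore carry counts and medians only. Named genes were the members, NFYA, overlapping genes, the 3 genes per member most correlated over libraries with a mean of at least 5 CPM, and up to 4 called genes per list and comparison by |log2FC|, provided that libraries did not overlap and that the higher mean reached 5 CPM. Other named genes are marked as picked out after their values were seen, or are list members with a role close to the enzymes (BMP1, PLOD2, ATP7A). Markers of the cell line and of other cell types were also given, and some marker results are not reported here.

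The alternatives were DESeq2 1.42.0, RLE scaling, a minimum of 10 counts per library, no filter, a block for the replicate letter, a fit of only the 2 groups compared, an offset for effective length, limma 3.58.1 on log2(TPM + 1) and log2(TPM + 0.1), other thresholds, and leaving out each library. The count and TPM procedures were tested on simulated data. The count tests recovered the changed genes in every draw. Limma on TPM did so where the changed genes were of moderate level and not short. With abundant and short genes also allowed among the changed ones, it missed a few in most draws. In some draws it also called unchanged genes, once with a shift of the fold changes, so that the TPM alternatives carry this limit. Positions came from GENCODE on GRCh37, and windows before gene starts from RefSeq on GRCh38.p14. Figures were drawn with matplotlib 3.10.9.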

Additional observations from a re-analysis of the deposited data

Results flagged for a closer look

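The effects of the isoforms on 4 members differed from each other by the edgeR test of NF-YAl against NF-YAs, which is the test of the difference between their effects over Empty. This difference was 1.53 on the log2 scale for LOX, which was higher over Empty in NF-YAl. For LOXL1 it was 1.33, with a fall over Empty in NF-YAs. For LOXL2 it was -1.01 and for LOXL4 -1.66, both lower in NF-YAl than in NF-YAs. All 4 had an adjusted p under 0.01 by edgeR with Benjamini-Hochberg adjustment.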

How the results depend on the processing

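LOX in NF-YAl over Empty and LOXL1 in NF-YAs over Empty kept direction and call in 20 of 20 alternatives, at log2FCs of 1.87 to 2.28 and of -1.46 to -1.16. LOX and LOXL1 did so in NF-YAl over NF-YAs too. LOXL1 in NF-YAl over Empty, never called, turned to 0.16 with the replicate block and to 0.24 on log2(TPM + 1) and 0.24 on log2(TPM + 0.1), and ranged from -0.17 to 0.13 with a library left out. LOXL2 in NF-YAl over Empty was called at -0.73 with no limit on the fold change, and was -0.42 and -0.43 on log2(TPM + 1) and log2(TPM + 0.1), with adjusted p-values of 0.343 and 0.353. In NF-YAl over NF-YAs it was not called at -0.88 on log2(TPM + 1) and -0.89 on log2(TPM + 0.1), and it ranged from -1.11 to -0.92 with a library left out. LOXL3 in NF-YAl over NF-YAs ranged from -0.13 to 0.47. It could not be tested with at least 10 counts in every library.

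LOXL4 in NF-YAs over Empty became called at 1.26 with no filter, 1.25 with only the 2 groups compared, 1.27 with the replicate block, 1.18 and 1.41 on log2(TPM + 1) and log2(TPM + 0.1), and 1.25 at an adjusted p under 0.05. The count of members called was then 2 in each of these. LOXL4 stayed uncalled with DESeq2, RLE scaling, at least 10 counts in every library, the offset for effective length and no limit on the fold change. With a library left out its log2FC ranged from 1.06 to 1.40 and the count from 1 to 2. It was called without any NF-YAl library and uncalled without any Empty or NF-YAs library. LOXL4 in NF-YAl over NF-YAs was not called at -1.66 with only the 2 groups compared (adjusted p = 0.0130), and ranged from -2.06 to -1.32 with a library left out. The count of members in NF-YAl over NF-YAs ranged from 2 to 4, and that in NF-YAl over Empty was 2 with no limit on the fold change. The cause of these changes was not tested. Counts over the gene lists that moved by over 1.5 times with a library left out moved by 1 gene each. LTBP1, ADAMTS3 and CA9 between the isoforms, LTBP2 in NF-YAs and STEAP3 in NF-YAl were not called on log2(TPM + 1), nor COL3A1 in NF-YAl over Empty and CA9 between the isoforms with only the 2 groups compared.

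Genes called were 1414, 1598 and 788 in the 3 comparisons, 675, 690 and 310 on log2(TPM + 1), and 3346, 3865 and 1874 with no limit on the fold change. With a library left out, those between the isoforms ranged from 525 without NF-YAs replicate C to 977 without NF-YAl replicate D. DESeq2 called 1476, 1634 and 897. On log2(TPM + 1) the median of all genes was higher by 0.213, 0.128 and 0.0835 than in the count test. Same-letter libraries of different groups correlated at 0.0862 on average over 7 pairs (-0.0652 to 0.253). Libraries of different letters did so at -0.0299 on average over 20 pairs (-0.220 to 0.163). These ranges overlapped, and replicate letters were not shown to pair the libraries. The replicate block gave 1547, 1730 and 989 calls.

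Differences in LOX transcript shares had no stable sign. For NM_002317.6 in NF-YAl over Empty they were -7.45 to 12.1 percentage points with a library left out (-1.78 without Empty replicate B, -4.01 without NF-YAl replicate A), and in NF-YAs over Empty -0.317 to 19.2. For NM_001178102.2 they were the mirror image, -12.1 to 7.45 (1.78, 4.01) and -19.2 to 0.317. LOXL3, with under 30 counts per library, was the member with the fewest reads.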
